A study of Mus musculus with 6 samples.

Results

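The distal stretch of mouse chromosome 15 holds a dense set of genes whose mRNA levels were, as a body, higher in 3 Sim2-expressing embryonic stem (ES) cell clones than in the parental line. The members were taken by position and level: genes listed on chromosome 15 of build mm9 from Arc, which starts at base 74499513, to Ppp1r1a, which starts at base 103360710, with an RPKM (reads per kilobase of cDNA, scaled to the depth of the library) averaging at least 1 over the 6 libraries. Foxh1 and Hnrnpa1, which lie there too, were left out by name. This gave 338 members of 22602 genes listed and of 11595 genes whose mean reached 1 RPKM, the genes tested below. The stretch itself was selected on the comparison of the clones with EB3, so the levels of its members in that comparison are a description and carry no test of their own.

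The clones, named A6, B8 and C4, are ES cells with a Flag-tagged mouse Sim2 transgene at ROSA26 driven by the hCMV*-1 promoter when tetracycline is absent. The 3 control libraries were cultures of EB3 (EBRTcH3), the parental ES line with no such transgene, numbered 0, 1 and 2. SIM2 is a transcription factor of the bHLH-PAS family. All 6 cultures grew with leukemia inhibitory factor and were without tetracycline for 26 h before RNA was taken. Each clone gave 1 culture and EB3 is 1 line, so the spread between libraries is that of clones in one group and of cultures in the other. Sim2 was listed at 168 to 212 RPKM in the clones and at 0.0917 to 0.130 in EB3, as labelled.

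Depth ran from 25095861 to 28269340 reads per library, and the members had a median of 1120 to 1583 reads each. EB3-0 stood apart from the other EB3 cultures. The chi-square of reads per gene was 2.78 between EB3-1 and EB3-2 and 78.4 between EB3-0 and EB3-1. The first is above the counting noise of independent reads, but reads of a pair are not independent. The 7 ES cell markers checked were all present, with summed levels of 5499 to 6658 RPKM in the clones and 5541 to 6978 in EB3. Of the fibroblast, primitive endoderm and trophoblast lists, 1 marker each (Thy1, Sox7 and Eomes) had a mean of at least 1 RPKM. The trophoblast list covers 5 genes and lacks Tfap2c, which was also planned but has no value here. Postn was at 0 in all 6 libraries, and Col1a1, Col1a2, Col3a1 and Dcn were at 0.17 RPKM or less. The summed primitive endoderm list was 3.52 to 4.22 RPKM in the clones and 2.29 to 2.64 in EB3, and the trophoblast list 2.70 to 4.75 and 2.13 to 2.34. The last holds Krt7, a gene of the stretch below the level of the members, and without it was 1.67 to 2.43 RPKM in the clones and 1.46 to 1.83 in EB3. The part of these lists in the results was not tested.

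Chromosome 15 of the mouse carries several clusters of related genes towards its far end. The Hoxc genes set position along the body axis, the type II keratins build the intermediate filaments of epithelia and hair, and the Ly6 genes encode small proteins anchored to the cell surface. Scattered among them are genes that every dividing cell uses, such as the α-tubulins of the microtubules, the ribosomal protein genes Rpl3 and Rpl8, and the co-activator Ep300. The clusters are mostly silent in ES cells while the housekeeping genes are active.

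The upstream sequence of 4 members is shown because these were the highest of the members above 0.6 in all clones and the lowest of those below 0, among members of at least 2 RPKM with a place in the mm9 annotation, no copy found elsewhere and no overlapping gene. Each run is the 250 bases before the listed start of the gene, 5′ to 3′ on the gene's strand, read from the mm9 genome. Capitals mark ACGTG on either strand, the core that bHLH-PAS factors are known to recognise. Slc39a4, which encodes a zinc importer, and Arhgap39 were both above 0.6 on the log2 scale in all 3 clones. Fkbp11 encodes a peptidyl-prolyl isomerase of the endoplasmic reticulum and Mapk11 a p38 kinase, and both were below 0.
Slc39a4: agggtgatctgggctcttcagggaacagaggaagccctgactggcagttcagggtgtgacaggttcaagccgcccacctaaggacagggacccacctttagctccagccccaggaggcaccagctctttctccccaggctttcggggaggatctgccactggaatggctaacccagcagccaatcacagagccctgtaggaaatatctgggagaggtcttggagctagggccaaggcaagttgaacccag
Arhgap39: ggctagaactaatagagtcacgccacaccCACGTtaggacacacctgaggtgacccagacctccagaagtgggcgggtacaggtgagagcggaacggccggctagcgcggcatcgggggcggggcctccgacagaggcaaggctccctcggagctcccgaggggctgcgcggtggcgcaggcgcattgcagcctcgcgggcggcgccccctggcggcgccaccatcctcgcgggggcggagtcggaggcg
Fkbp11: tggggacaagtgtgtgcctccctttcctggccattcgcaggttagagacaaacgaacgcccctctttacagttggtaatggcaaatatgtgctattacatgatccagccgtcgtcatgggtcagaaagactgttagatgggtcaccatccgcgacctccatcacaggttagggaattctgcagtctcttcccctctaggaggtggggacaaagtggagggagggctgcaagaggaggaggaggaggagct
Mapk11: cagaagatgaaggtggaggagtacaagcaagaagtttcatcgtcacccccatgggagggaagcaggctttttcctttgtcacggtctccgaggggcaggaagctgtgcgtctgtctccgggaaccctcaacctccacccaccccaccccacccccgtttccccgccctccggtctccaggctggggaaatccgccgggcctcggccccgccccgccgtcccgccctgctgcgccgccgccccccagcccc

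The windows lie on the minus strand at chr15:76447283-76447532 for Slc39a4, chr15:76648601-76648850 for Arhgap39, chr15:98558630-98558879 for Fkbp11 and chr15:88980037-88980286 for Mapk11. ACGTG was found in 1 of these 4 windows, that of Arhgap39, with its first base 221 bases before the start. Over all members, ACGTG or its complement CACGT was in 63 of 338 windows (18.6%), against 2492 of 11125 windows (22.4%) of tested genes on other chromosomes. CACGTG was in 7.69% of member windows and 8.65% of the others, and TACGTG, read on either strand, in 2.96% and 3.14%. Both longer words contain the shorter. The median centred log2 ratio, defined below, was 0.26 for members whose window held ACGTG and 0.29 for those without.

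The stretch was rich in genes and in active genes. It listed 564 genes without the pair left out, over 28.9 Mb, and 338 of them (59.9%) had a mean of at least 1 RPKM, which is 11.7 per Mb. The part of chromosome 15 before it had 130 such genes of 264 listed over 71.2 Mb, or 1.83 per Mb, and 51.3% of all listed genes passed that level. Of the 226 genes of the stretch under 1 RPKM, 67 were listed at 0 in all 6 libraries. The members lay on the plus strand in 161 cases and on the minus strand in 177.

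Members had higher levels, shorter cDNAs and more GC than genes elsewhere. Their median level was 18.6 RPKM, with quartiles at 6.34 and 48.2, against 12.6 RPKM for the 11125 tested genes of other chromosomes. Their median cDNA length was 2468 bases against 2733, and their median transcript GC 55.1% against 50.7%. Rpl8, a protein of the large ribosomal subunit, had the highest mean level of the members, 4296 RPKM. Of the members, 52 had a copy elsewhere in the genome of at least 200 matching bases, and 63 overlapped another listed gene, so their reads cannot be assigned with certainty. Copies could be sought for the 323 members with a matched transcript. Of these, 229 had none of these limits, with a median ratio of 0.27.

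To set the clones against EB3, the centred log2 ratio was formed for each library as log2(RPKM + 0.5) minus the mean of the 3 EB3 libraries, minus the median of that difference over the 11595 tested genes. A value of 0 is thus the level of a typical gene. Over the members the median was 0.32 for A6, 0.28 for B8 and 0.27 for C4, a mean of 0.29 ± 0.024 (SD, n = 3 clones). These medians correspond to 1.25-fold, 1.22-fold and 1.21-fold of EB3. In the EB3 libraries the same median was 0.085, -0.047 and -0.039 for cultures 0, 1 and 2, so every clone lay above every EB3 culture. In bulk RNA, more transcript in each cell and more cells with the transcript cannot be told apart. The medians of the clones spanned 0.046, less than the 0.132 spanned by the EB3 cultures, but the stretch was picked as higher in all clones.

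The share of all reads that fell on members was also higher in the clones than in EB3, though B8 and C4 changed places. Clone A6 had 4.76%, B8 4.60% and C4 4.64%, and there were 4.07%, 3.77% and 3.78% in EB3-0, EB3-1 and EB3-2. The groups did not overlap. The genes of the stretch under 1 RPKM together gave 105, 108 and 78.5 reads per 1000000 in A6, B8 and C4, and 79.7 to 80.9 in EB3, so C4 lay just below the EB3 range there.

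Counted by gene, 248 of the 338 members (73.4%) were above 0 in all 3 clones, where 29% of all tested genes were. A further 13 (3.85%) were below 0 in all 3, beside 29.2% of tested genes, and 77 had no common sign. In 170 members (50.3%) the 3 clone values all lay above the 3 EB3 values, beside 12.7% of tested genes, and in 6 (1.78%) all lay below, beside 13.4%. By limma with Benjamini-Hochberg adjustment, 6 members were called higher, beside 0.345% of tested genes, and 0 were called lower, beside 0.354%. Without adjustment 158 members (46.7%) were under 0.05, beside 17.8% of tested genes. The rule used this comparison, so nothing is read from these counts. The 6 called members were Slc39a4, Fignl2, Itga5, Csnk1e, Parvb and Fam83h, the last of these named after its values were seen. Without EB3-0 the count of members called higher was 81, beside 2.54% of tested genes, and without EB3-1, EB3-2 or clone B8 it was 0.

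**Figure D1:**
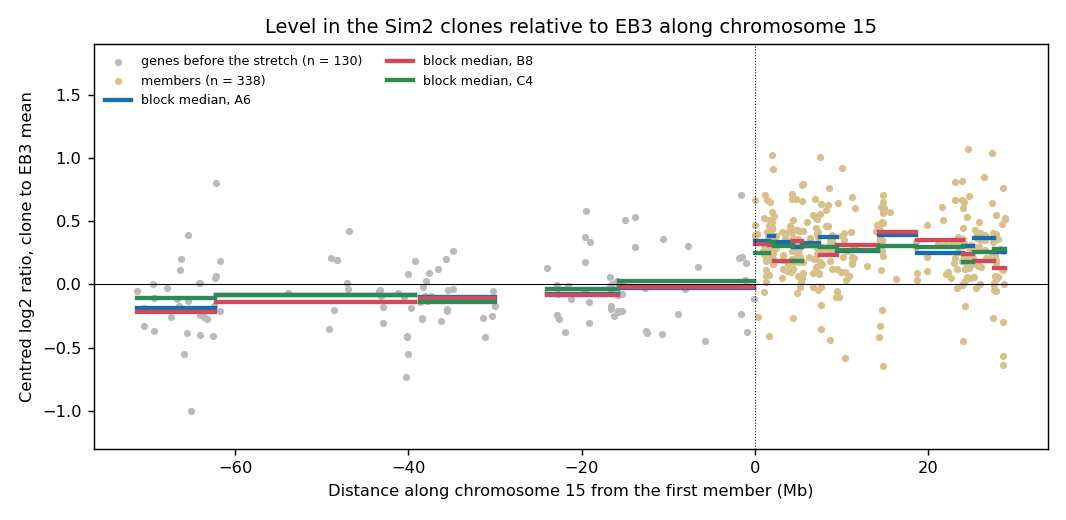
Centred log2 ratio of each tested gene of chromosome 15, as the mean of the 3 clones (points), against the distance of its start from the first member in Mb, with horizontal bars for the median of each block of consecutive genes in clones A6, B8 and C4. All 36 block medians to the right of the dotted line are above 0, and the 5 blocks before it lie between -0.22 and 0.029.

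The rule set the bounds of the stretch from this same comparison, so the genes at its ends are described here and do not place its edges. Before the stretch, the last tested genes were Slc45a4 at 0.17, Ptp4a3 at -0.37 and Bai1 at -0.11 (mean of the clones), which start 1.09, 0.944 and 0.153 Mb before the first member. The first members were Arc at 0.67, Jrk at 0.47 and 4930572J05Rik (Them6) at 0.39. Bai1, an adhesion receptor, was at 3.37, 2.73 and 3.22 RPKM in A6, B8 and C4 and at 3.17, 3.22 and 3.86 in EB3-0, EB3-1 and EB3-2, so its groups overlapped. Arc, whose product acts at synapses, was at 41.2, 46.1 and 32.0 RPKM in the clones and at 24.9, 23.2 and 25.9 in EB3, with every clone above every EB3 culture. At the far end, Nckap1l was at -0.00018, Pde1b at 0.52 and Ppp1r1a at 0.53, and the last member ended 126551 bases before the end of the chromosome.

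The 338 members were cut into 12 consecutive blocks of 28 or 29. The block medians ran from 0.25 to 0.39 in A6, from 0.13 to 0.42 in B8 and from 0.18 to 0.34 in C4. The highest block by the mean of the clones was the 8th, from Mov10l1 to Yaf2, at 0.35, and the lowest was the 12th, from Itgb7 to Ppp1r1a, at 0.20. In each block at least 78.6% of members had a mean above 0, and in the second, from Exosc4 to Commd5, all 29 did. The 130 tested genes before the stretch had medians of -0.095, -0.11 and -0.070 in A6, B8 and C4, below those of other chromosomes at -0.0047, -0.0071 and -0.0055. In EB3-0, EB3-1 and EB3-2 their medians were -0.115, 0.072 and 0.045, so EB3-0 lay below every clone.

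**Figure D2:**
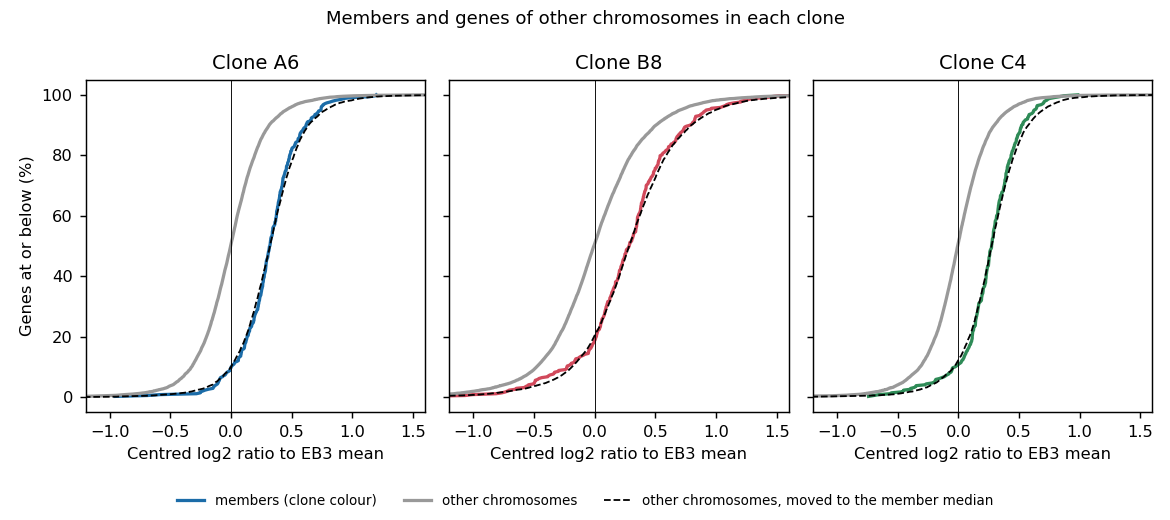
Cumulative distributions of the centred log2 ratio in clones A6, B8 and C4 for the 338 members (coloured), for the 11125 tested genes of other chromosomes (grey), and for the latter moved so that their median equals that of the members (dashed). The x axis is cut at -1.2 and 1.6. The coloured and dashed curves lie close together in each clone.

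The spread of the members around their median was about that of any other genes. Their SD over genes was 0.26 for A6, 0.43 for B8 and 0.25 for C4, against 0.30, 0.45 and 0.29 on other chromosomes. The interquartile range was 0.19 to 0.45 in A6, 0.058 to 0.49 in B8 and 0.14 to 0.40 in C4. In A6, 10.1% of members lay below 0, and 10.1% of the genes of other chromosomes lay as far below their own median. In B8 these shares were 18.6% and 20.5%, and in C4 10.9% and 12.2%. On the upper side, 8.88%, 19.2% and 8.58% of members in A6, B8 and C4 were above the doubled member median, and 9.93%, 21.3% and 11.7% of other genes were as far above their own median. Members under 0 and members far above the median were thus no more frequent than this reference, which has no test attached.

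B8 was the most scattered clone. The SD over members of the difference between clones was 0.22 for A6 and C4, 0.39 for A6 and B8 and 0.35 for B8 and C4, and on other chromosomes it was 0.22, 0.39 and 0.36. The SD of the 3 clone values was under 0.2 for 231 members. The stretch was picked as higher in all 3 clones, so some agreement between them was fixed in advance. Differences between clones were fitted with limma, each clone library being assumed to vary like an EB3 culture. No member was called for A6 against B8 (0 of 338, beside 0.00862% of tested genes), A6 against C4 (0 of 338, beside 0%) or B8 against C4 (0 of 338, beside 0%), all by adjusted p under 0.05. With 1 library an arm, this does not show that the clones did not differ. At an unadjusted p under 0.05 there were 32, 4 and 27 members (9.47%, 1.18% and 7.99%), beside 8.87%, 1.47% and 7.81% of tested genes. These counts rest on EB3-0: without it 132, 22 and 103 members were called (39.1%, 6.51% and 30.5%), beside 35.4%, 4.88% and 27.1% of tested genes.

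**Figure D3:**
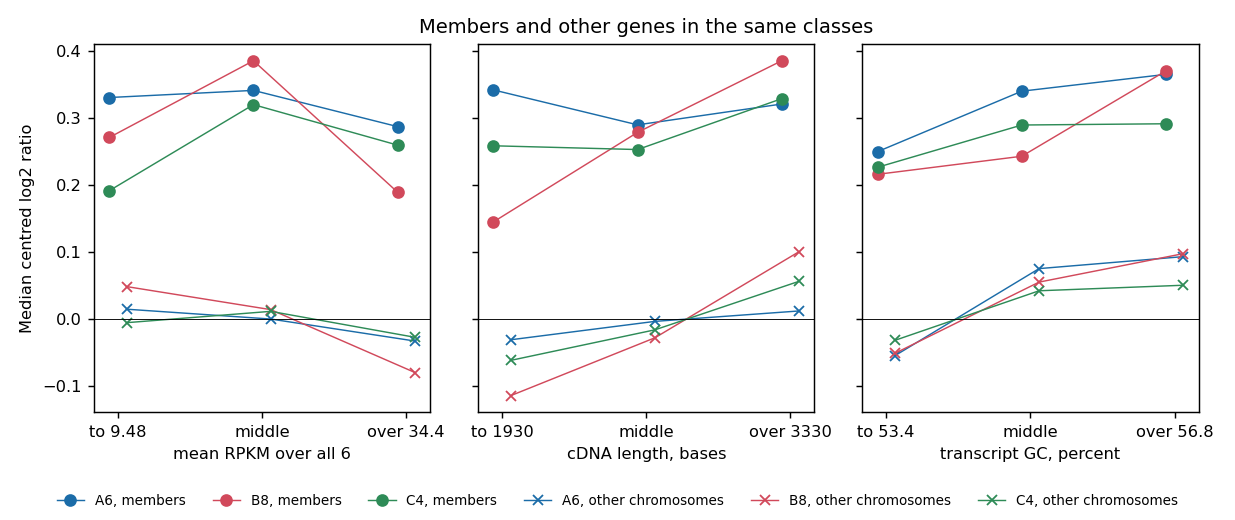
Median centred log2 ratio of members (circles) and of tested genes on other chromosomes (crosses) in 3 classes of mean RPKM, cDNA length and transcript GC, for clones A6, B8 and C4. The members lie above the other genes of the same class in all 27 pairs.

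The ratio differed between classes of level, cDNA length and GC in members and in other genes, but not always in the same direction. In the members with the shortest cDNAs (up to 1930 bases) the medians were 0.34, 0.14 and 0.26 in A6, B8 and C4, and in those over 3330 bases 0.32, 0.38 and 0.33. The genes of other chromosomes in these classes were at -0.030, -0.11 and -0.061 and at 0.012, 0.10 and 0.057. The members therefore stood above others of like length by 0.37, 0.26 and 0.32 for the shortest and by 0.31, 0.28 and 0.27 for the longest. By transcript GC, the difference of the mean of the clones was 0.27 up to 53.4%, 0.21 in the middle class and 0.27 over 56.8%. By level it was 0.21 up to 9.48 RPKM, 0.35 in the middle class and 0.30 over 34.4 RPKM. With the trends of each library against GC and length removed, the median of the members was 0.23, against 0.28 as deposited. EB3-0 also differed by length from the other EB3 cultures: its median against them was 0.30 for the shortest members and -0.11 for the longest.

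A group of 10 members was above 0.6 in all 3 clones, the value taken here for exceeding the rest, beside 0.621% of tested genes. They were Slc39a4, AI848285, Arhgap8, Arhgap39, Fignl2, Ccnt1, Rapgef3, Itga5, Celsr1 and Csnk1e. Slc39a4, the zinc importer, was at 62.5, 59.2 and 49.4 RPKM in A6, B8 and C4 and at 27.9, 28.6 and 26.8 in EB3-0, EB3-1 and EB3-2. All clones stood well apart from EB3, with a mean ratio of 1.02 ± 0.16 (SD, n = 3), or 2.03-fold. Arhgap39 was at 20.8, 29.6 and 20.1 RPKM in the clones and 10.5, 12.7 and 13.2 in EB3. B8 was the highest library, and the groups did not overlap. Fignl2, which encodes an AAA ATPase, was at 25.1, 29.5 and 23.3 RPKM in the clones and 14.6, 13.1 and 14.9 in EB3, a mean ratio of 0.85 ± 0.17.

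Itga5, the α5 subunit of the fibronectin receptor, was at 37.4, 39.7 and 36.9 RPKM in the clones and 25.2, 20.4 and 21.4 in EB3. Csnk1e, a kinase of the circadian clock and of Wnt signalling, was at 61.4, 57.7 and 54.9 RPKM in the clones and 41.1, 34.3 and 33.6 in EB3. Both were even over the clones, with an SD of 0.06. Celsr1, an atypical cadherin of planar cell polarity, was at 8.06, 8.09 and 7.36 RPKM in the clones and 3.57, 5.40 and 5.28 in EB3, with EB3-0 the lowest library. Rapgef3 (EPAC), an exchange factor activated by cyclic AMP, was at 7.21, 6.14 and 5.45 RPKM in the clones and 3.74, 3.33 and 3.00 in EB3. AI848285 was at 6.80, 8.78 and 7.41 RPKM in the clones and at 4.73, 3.15 and 2.97 in EB3, with EB3-0 the highest of its group. Arhgap8, at 0.92, overlapped a second listed gene.

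For some members the ratio rested on EB3-0. Ccnt1 encodes cyclin T1, the partner of CDK9 in transcription elongation, and was at 29.3, 30.0 and 30.9 RPKM in the clones and at 7.66, 26.1 and 23.9 in EB3-0, EB3-1 and EB3-2. EB3-0 alone was low, and without it the mean ratio of Ccnt1 was 0.27 in place of 0.81. Without EB3-0, Ccnt1 and Celsr1 were no longer above 0.6 in every clone, while the other 8 of the 10 were. Of these 8, Csnk1e kept that place under 9 of 14 alternatives and Rapgef3 under 10 of 13. Ep300, a histone acetyltransferase, had the same form with 34.1, 41.0 and 37.9 RPKM in the clones and 14.3, 29.4 and 30.2 in EB3.

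Kcnh3 and Krt8 had the highest mean ratios without being above 0.6 in every clone. Kcnh3, a voltage-gated potassium channel gene, was at 7.17, 8.97 and 4.18 RPKM in A6, B8 and C4 and at 3.07, 2.42 and 3.04 in EB3, a mean ratio of 1.07 ± 0.51. It overlaps Mcrs1 in the list. Mgat3, a glycosyltransferase gene, was also among the 10 highest, at 0.79 ± 0.34. None of these had an overlap between the groups.

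**Figure D4:**
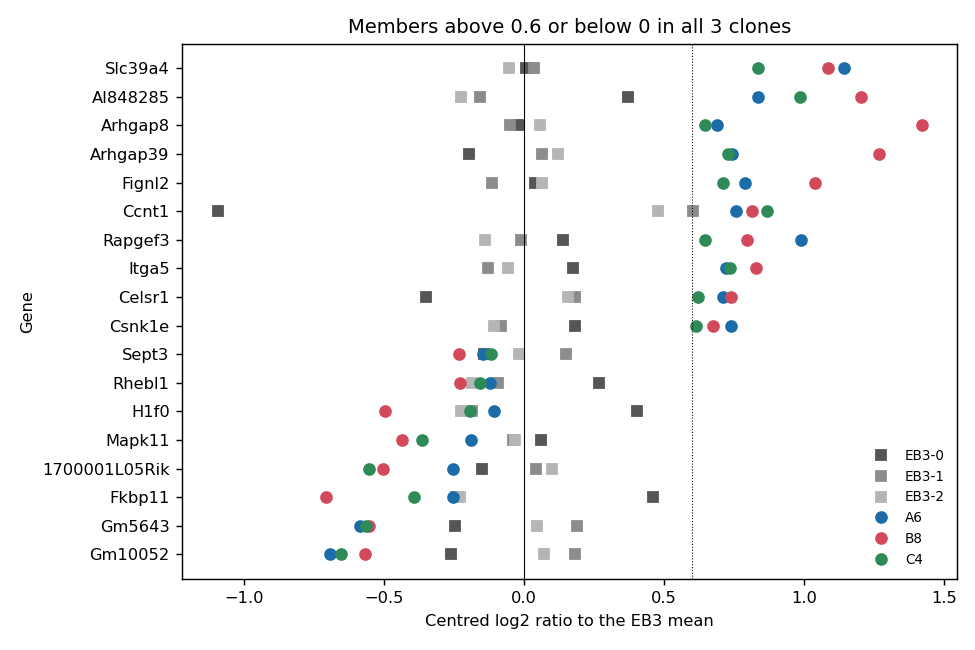
Centred log2 ratio to the EB3 mean in each of the 6 libraries (circles, clones, and squares, EB3 cultures) for the 18 members of at least 2 RPKM above 0.6 or below 0 in all 3 clones. The dotted line marks 0.6. EB3-0 lies far below the other EB3 cultures for Ccnt1 and far above them for Fkbp11 and H1f0.

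Below 0 in every clone were 13 members, apart from the 77 that had no common sign over the clones. Of the 13, 8 had a mean of at least 2 RPKM. The lowest of these 8, Gm10052 at -0.64 and Gm5643 at -0.57, overlap the listed place of Hnrnpa1, and the mm9 annotation puts genes of these names on chromosomes 9 and X, so their values are uncertain. The next were Fkbp11 at -0.45 and 1700001L05Rik at -0.44. 1700001L05Rik was at 13.4, 11.0 and 10.6 RPKM in the clones and at 14.3, 16.5 and 17.2 in EB3, so that all clones lay below all EB3 cultures. A stretch of 312 bases of it matches another place on chromosome 15. Mapk11, the p38 kinase gene, was at 4.90, 3.97 and 4.17 RPKM in the clones and at 5.85, 5.45 and 5.46 in EB3, a mean ratio of -0.33 ± 0.13, again without overlap.

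Fkbp11 was at 17.1, 12.2 and 15.1 RPKM in the clones and at 28.1, 17.1 and 17.3 in EB3-0, EB3-1 and EB3-2. EB3-0 was the highest library, and A6 and EB3-1 were level. Without EB3-0 the mean ratio of Fkbp11 was -0.21 in place of -0.45. H1f0, the linker histone H1.0, was at 46.3, 34.8 and 42.7 RPKM in the clones and 65.6, 43.6 and 42.3 in EB3, with overlapping groups. Rhebl1, a small GTPase gene related to Rheb, and Sept3 (Septin3), a septin gene, were at -0.17 and -0.16, also with overlap. Without EB3-0, H1f0 and Rhebl1 were no longer below 0 in every clone. The other 5 had means under 2 RPKM (Gm10345, Smc1b, Mov10l1, 1700007E06Rik and Soat2, named because so few) and ratios of -0.65 to -0.27. Without EB3-0, Mov10l1, 1700007E06Rik and Soat2 were not below 0 in every clone either, and Smc1b kept that place under 7 of 13 alternatives.

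The members with the largest range between clones were Ly6a, Krt8, Kdelr3, Bik and Cpt1b, with ranges of 2.08, 1.95, 1.91, 1.39 and 1.31. Krt8, a keratin of simple epithelia, was at 7.95, 21.7 and 5.21 RPKM in A6, B8 and C4 and at 4.93, 3.79 and 4.86 in EB3, with B8 far above all other libraries. Krt18, its filament partner, chosen after its values were seen, was at 5.78, 11.9 and 5.71 RPKM in the clones and at 4.71, 4.27 and 4.60 in EB3, again with B8 the highest. Both have copies of over 1000 matching bases elsewhere in the genome. Ly6a (Sca-1), a surface antigen of stem and progenitor cells, went the other way, with 5.87, 0.98 and 3.29 RPKM in the clones and 2.96, 3.07 and 4.53 in EB3. B8 was the lowest library and A6 the highest.

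Kdelr3, a receptor that retrieves proteins to the endoplasmic reticulum, was at 31.6, 7.88 and 15.7 RPKM in the clones and at 19.4, 11.9 and 10.3 in EB3, with A6 highest and B8 lowest. It overlaps Ddx17 in the list. Bik, a pro-apoptotic BCL2-family gene, was at 4.01, 1.19 and 1.65 RPKM in the clones and at 2.25, 1.47 and 1.87 in EB3, with the same order of A6 and B8. Cpt1b, the muscle form of carnitine palmitoyltransferase, was at 2.89, 7.80 and 3.79 RPKM in the clones and at 2.60, 2.66 and 2.38 in EB3, highest in B8.

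**Figure D5:**
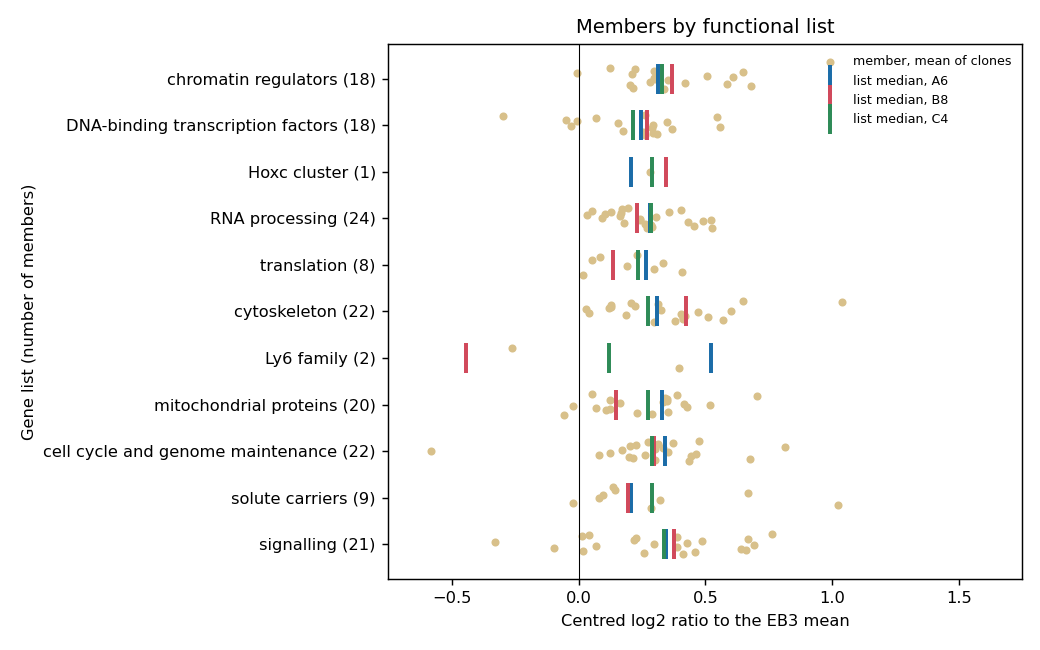
Centred log2 ratio of the members of 11 functional lists as the mean of the clones (points), with the list median in clones A6, B8 and C4 (vertical bars). The number of members is in brackets, and most points lie to the right of 0.

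By function, the chromatin regulators had 18 members with a median ratio of 0.30, beside 0.28 for all members and -0.00774 for genes of other chromosomes, and 15 were above 0 in all 3 clones. In 13 of the 18 (72.2%) every clone lay above every EB3 culture, which held for 50.3% of all members and 12.7% of all tested genes. These shares are the ones to read the counts of the other lists against, and no difference between lists was tested. Cbx7, a reader of the Polycomb mark that is prominent in ES cells, was at 142, 174 and 146 RPKM in the clones and at 128, 136 and 133 in EB3, with no overlap. Cbx5 (HP1α) was at 181, 139 and 168 RPKM in the clones and at 111, 170 and 174 in EB3, so its groups overlapped, and its ratio of 0.12 was -0.08 without EB3-0. Smarcd1, a subunit of BAF complexes, had a ratio of 0.22 and L3mbtl2, a member of a non-canonical Polycomb complex, one of 0.20.

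The DNA-binding transcription factors had 18 members with a median of 0.26, 13 of them above 0 in all clones and 8 (44.4%) with every clone above every EB3 culture, beside 50.3% of members and 12.7% of tested genes. Srebf2, which activates sterol synthesis genes, was at 85.3, 132 and 97.4 RPKM in the clones and at 66.7, 71.8 and 72.0 in EB3, with B8 highest. Rarg, a retinoic acid receptor gene, was at 198, 122 and 190 RPKM in the clones and at 193, 161 and 165 in EB3, with B8 the lowest library. Atf4, the factor of the integrated stress response, had a ratio of 0.17 and Zfp740, a zinc finger gene, one of -0.01. Of 9 Hoxc genes only Hoxc13 reached 1 RPKM, at 1.10 to 1.83 RPKM with overlapping groups. The other 8 together had 15 to 34 reads per library.

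The RNA processing list had 24 members with a median of 0.25, all above 0 by the mean of the clones and 22 in every clone, and in 10 (41.7%) the clones lay above EB3 with no overlap, beside 50.3% of members and 12.7% of tested genes. Puf60, a splicing factor, was at 224, 210 and 222 RPKM in the clones and at 218, 169 and 162 in EB3. Nhp2l1 (Snu13), a U4 snRNP protein, had a ratio of 0.09, Pcbp2, a poly(C)-binding protein, 0.17, and Polr2f, a subunit shared by RNA polymerases, 0.18. The translation list had 8 members with a median of 0.21, and in 3 (37.5%) the clones lay above EB3 with no overlap. Rpl8 was at 4847, 4506 and 4719 RPKM in the clones and at 5046, 3307 and 3350 in EB3, where EB3-0 was the highest of all libraries, and its ratio was 0.30, or 0.50 without EB3-0. Eif3l and Eif3d, initiation factor 3 subunits, had ratios of 0.33 and 0.19, and Eif4b, which aids the eIF4A helicase, 0.23.

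The cytoskeleton list had 22 members with the highest median of the larger lists after signalling, 0.35, and 16 were above 0 in all clones, 14 (63.6%) with the clones above EB3 and no overlap, beside 50.3% of members and 12.7% of tested genes. The α-tubulins were among its lowest ratios. Tuba1b, an α-tubulin, was at 953, 673 and 840 RPKM in the clones and at 957, 736 and 728 in EB3, a ratio of 0.03, and Tuba1a and Tuba1c were at 0.12 and 0.13. The α-tubulin genes have near copies, so their reads cannot be told apart with certainty. Arf3, a GTPase of the Golgi that the list also holds, was at 0.33. The 23 other keratins of the stretch, mostly of epidermis and hair, held no member. They had 58 to 155 reads in all per library, and Krt7, a keratin of simple epithelia, came closest at 0.918 RPKM.

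The list of mitochondrial proteins had 20 members with a median of 0.31, and 14 were above 0 in all clones, with 7 (35.0%) above EB3 and without overlap, beside 50.3% of members and 12.7% of tested genes. The list as written also holds Pmm1 and the peroxisomal carrier Slc25a17, without which its median was again 0.31, over 18 members. Those 18 still include Tymp, and the place of each product in the cell was not checked. Cyc1, cytochrome c1 of complex III, was at 519, 459 and 467 RPKM in the clones and at 482, 357 and 355 in EB3. Pmm1, a phosphomannomutase gene whose product is known from the cytosol, was at 0.41, Txn2, the mitochondrial thioredoxin, at 0.23 and Tomm22, an import receptor, at 0.07. The cell cycle and genome maintenance list had 22 members with a median of 0.30, and 17 were above 0 in all clones, with 14 (63.6%) above EB3 and without overlap, beside 50.3% of members and 12.7% of tested genes. Rangap1, the GTPase activator of Ran, was at 201, 205 and 212 RPKM in the clones and at 170, 143 and 143 in EB3, with no overlap. Poldip3, a partner of DNA polymerase δ, was at 0.46, Gtse1, a microtubule and p53 regulator, at 0.17 and Tmbim6, an inhibitor of cell death, at 0.23.

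The 9 solute carriers had the lowest median of the lists with more than 2 members, 0.14, and only 4 were above 0 in all clones. Slc38a2, a neutral amino acid transporter, was at 101, 123 and 118 RPKM in the clones and at 93.4, 116 and 115 in EB3. Slc38a4, of the same family, was at 0.09 and Slc25a17, a peroxisomal carrier, at -0.02, while Slc39a4 stood at the other end of the list. The 21 signalling members had a median of 0.39, with 15 above 0 in all clones and 12 (57.1%) above EB3 and without overlap, beside 50.3% of members and 12.7% of tested genes. Parvb, which links integrins to actin, was at 98.0, 108 and 108 RPKM in the clones and at 63.4, 68.1 and 69.9 in EB3, a ratio of 0.64 ± 0.10. Pim3, a serine/threonine kinase gene, was at 0.30, Prkag1, a subunit of AMP-activated kinase, at 0.23 and Map3k12, a kinase of the JNK pathway, at 0.04. Of the Ly6 family, 2 of 14 listed genes were members. Ly6e was at 88.9, 97.3 and 82.0 RPKM in the clones and at 81.7, 61.6 and 62.1 in EB3, a ratio of 0.40. Of the members called higher by limma, 1 each was on the cell cycle (Csnk1e) and solute carrier (Slc39a4) lists and 2 on the signalling list (Itga5 and Parvb). The other lists had 0 called members, and 0 were called lower on any list.

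The study listed the genes closest to its SIM2 sites, mapped by chromatin immunoprecipitation in these clones, and such genes made up 35 of the 338 members (10.4%), against 10.04% of tested genes on other chromosomes. The 35 had medians of 0.37, 0.41 and 0.32 in A6, B8 and C4. The other 303 had medians of 0.31, 0.28 and 0.26. The list was drawn from the same clones, and the difference was not tested.

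At the level bound of the rule, the members just inside were Hdac7 at 1.00 RPKM with a ratio of 0.21, Nfe2 at 1.02 with -0.30 and Slc4a8 at 1.05 with 0.13. Those just outside were Mapk15 at 0.952 RPKM with 0.00, Acvrl1 at 0.944 with 0.38 and Krt7 at 0.918 with 0.68. Hdac7 encodes a histone deacetylase, Nfe2 an erythroid transcription factor and Slc4a8 a bicarbonate transporter. Foxh1, left out by name, was at 0.72 and Hnrnpa1 at -0.52.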

How the data were processed

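Messenger RNA of 6 libraries, 3 Sim2 clones and 3 EB3 cultures, was read with an unstranded kit. The authors mapped read pairs to mm9 with BWA at default parameters, measured exon coverage of RefSeq genes with their own pipeline and deposited RPKM values with the cDNA length. The authors tested differences with edgeR. Tool versions and the treatment of reads with several places are not given in the sources used here. Each deposited RPKM value times its cDNA length was a whole multiple (within 0.01) of a step per library for 100% of values, which gave the reads. Reads of a pair are not independent, so depth is an upper limit. No per-sample column was left unused (0).

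Values were taken as log2(RPKM + 0.5), which understates changes of low genes. Genes with a mean of at least 1 RPKM were tested with limma 3.58.1 (R 4.3.3) on all 6 libraries, with an intensity trend and Benjamini-Hochberg adjustment at 0.05. It was tested on simulated data. For pairs of clones the spread came from EB3 alone. The libraries are separate cultures of 3 clones and of 1 line, and p-values measure the spread between these. GC came from mm9 transcripts of an annotation matched by symbol (95.6% of members). Copies were sought by aligning member transcripts to mm9 with minimap2 2.31 (at least 200 matching bases, 90% identity). Other steps used Python 3.11.15, numpy 2.4.6 and pandas 2.3.3.

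Members and lists were chosen with earlier results of these data known. Named were the 10 highest and 10 lowest members of at least 2 RPKM, the 5 with the largest range between clones, the 4 most abundant of each list, and 3 genes at each end. Alternatives were pseudocounts of 0.1 and 1, no filter or a mean of at least 5 RPKM, GC and length trends removed (natural splines, 5 degrees of freedom), other centring, EB3-1 and EB3-2 averaged, and each library left out. The trophoblast list without Krt7, the mitochondrial list without Pmm1 and Slc25a17, and the restriction to members that could be searched for copies were chosen after seeing the data.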

Additional observations from a re-analysis of the deposited data

How the results depend on the processing

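The median ratio of the members stayed positive in every clone under all alternatives, and over the mean of the clones it ran from 0.22 with no filter on low values to 0.33 without EB3-0 (0.25 to 0.33 over the libraries left out). It moved by more than the SD of the EB3 cultures in B8 with no filter (0.20) or with GC and length trends removed (0.20), and in C4 with no filter (0.20). Leaving out a library gave 0.29 to 0.37 in A6, 0.25 to 0.31 in B8 and 0.25 to 0.31 in C4, and 69.5% to 85.2% of members above 0 in all clones.

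Calls depended most on the processing. Members called higher numbered 2 with no filter (beside 0.0779% of tested genes), 26 with the trends removed (1.06%), 0 with EB3-1 and EB3-2 averaged (0.0345%), and 0 to 81 with a library left out (0.0345% to 2.54%). Members called lower were 0 to 2, the 2 being without EB3-0, where 694 of 11595 tested genes were called in either direction. Members with every clone above every EB3 value were 174 to 239 with a library left out, against 170 with all 6. With fewer libraries the condition is easier to meet, so this count cannot fall. The share of tested genes under it was not computed, and nothing is read from the rise. Over the EB3 cultures left out, members called between A6 and B8 were 2 to 132 (beside 0.448% to 35.4% of tested genes). They were 0 to 22 for A6 and C4 (0.00862% to 4.88%) and 1 to 103 for B8 and C4 (0.44% to 27.1%). With the trends removed 1 member (0.31%) was called between B8 and C4, beside 0.635% of tested genes. Members above 0.6 in all clones were 3 with the trends removed, and 10 to 24 with a library left out. The 3 were Slc39a4, Arhgap8 and Ccnt1, all among the 10. Arhgap39 was lost with the trends removed, and AI848285 and Fignl2 had no transcript GC and were not in that run. Members below 0 in all clones were 41 with no filter, 6 at a mean of at least 5 RPKM, and 13 to 21 with a library left out. The filter also changed the number of members, to 497 with no filter and 270 at a mean of at least 5 RPKM. Counts and shares that ask for all clones cannot fall when a clone is left out, since fewer clones must meet the condition. The cause of the other changes in these counts was not tested. Of 910 values for 66 named genes, 837 moved by less than the SD between clones and 0 changed sign where the value was beyond that SD. No paired analysis was possible because the clones and the EB3 cultures share no replicate number. Depth limits the low members most: the fewest reads of a member in a library were 8.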
